A study of Mus musculus with 16 samples.

Results

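Histone genes were examined in sorted cells of the mouse olfactory mucosa, the tissue that holds the olfactory sensory neurons (OSNs). Members were chosen by gene symbol, with earlier results of these data known. Histone gene stems of the older (Hist1h to Hist4h) or newer (H1f, H2ac, H2bc, H3c, H4c and related) naming were used. Every feature whose symbol begins with such a stem was taken. This gave 63 of the 19572 features with 1 gene symbol, all of which matched a RefSeq gene. By symbol, 5 were placed as replication-independent variants and 5 as genes known for use in the germ line. The other 53, called cluster genes below, were classed as replication-coupled (4 for linker histone H1, 12 for H2A, 15 for H2B, 10 for H3 and 12 for H4). H2bc21, an H2B variant gene described below, is counted among these 15. H3c14 and H3c15 carried identical values on all 16 arrays, so the 63 features are 62 separate measurements. The symbols H2ax, H2aj, Macroh2a1, Macroh2a2 and Cenpa fall outside the naming rule and are given only beside it.

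The study used C57BL/6 mice with the S100a5-tauGFP reporter, in which S100a5, a calcium-binding protein gene that odor activity raises in OSNs, drives a fluorescent protein. The 24 mice of both sexes, aged 7 to 12 weeks, were kept singly in clean moving air for 40 h, and from 26 h on were given either filtered air (vehicle) or a mixture of the aldehydes undecanal and bourgeonal for 10 s every 20 min. Mucosa of 3 mice at a time was dissociated and sorted by GFP, so 8 pools gave 16 Clariom S arrays (1-colour arrays with 1 value per gene): vehicle titled GFP-, vehicle titled GFP+, odor titled GFP- and odor titled GFP+, with 4 arrays each. Every mouse carried the reporter, and no unsorted tissue or reporter-free animal was analysed here.

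The sample titles and the cell type field of the same samples state opposite GFP status on all 16 arrays. Groups follow the titles, and differences between fractions are titled GFP- minus titled GFP+ on the log2 scale. If the cell type field is the right one, the names of the 2 fractions change places and every fraction difference below keeps its size with the sign turned. S100a5 itself was higher in titled GFP-, by 1.00 in vehicle (SE 0.20, limma adjusted p = 0.0019) and 1.31 in odor pools (SE 0.20, adjusted p = 0.00016), which goes against the titles. The 10 mature OSN markers had medians of 17.1 to 17.4 on titled GFP- arrays and 16.8 to 17.0 on titled GFP+ arrays. Of these markers, 1 in vehicle and 3 in odor pools passed as higher in titled GFP-, and 0 as lower. Markers of other cell types went with the fractions: 11 of 11 neutrophil markers and 14 of 14 other leukocyte markers were lower in titled GFP- in both treatments. The neutrophil median was 12.3 to 15.3 on titled GFP+ arrays and 5.29 to 6.19 on titled GFP- arrays, where at most 1 of the 11 was above background. Since these are bulk RNA samples, fewer cells of a type and less RNA per cell cannot be told apart.

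Histones package DNA: 2 copies each of H2A, H2B, H3 and H4 form the nucleosome core, and H1 binds the linker between nucleosomes. Most histone genes lie in clusters, are transcribed during S phase, and make messenger RNAs that end in a stem loop in place of a poly(A) tail. Replication-independent variants such as H3.3 (H3f3a, H3f3b) and H2A.Z (H2az1, H2az2) are made throughout the cell cycle and supply neurons, which no longer divide. In mouse OSNs the H2B variant H2BE, encoded by H2bc21 (formerly Hist2h2be), is known for a level linked to neuronal activity. The labels do not say how the cRNA reaction was primed, and the effect of priming on transcripts without a poly(A) tail was not tested.

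Many H2A and H2B genes sit head to head and share the DNA between their start sites. Of 7 such pairs among the members, both genes passed the vehicle test of the fraction difference in 4, 1 gene in 2 and neither in 1. In odor pools the counts were 3, 3 and 1. The stretches between the starts are shown for the 3 pairs of which both genes passed in odor pools. Letters are RefSeq, build GRCm38.p6, 5' to 3' in the direction of the H2B gene. Capitals mark the octamer ATTTGCAT, known as a binding sequence of the factor OCT1 in H2B promoters, and CCAAT boxes (CCAAT, or ATTGG on the other strand).
H2ac15 and H2bc15, chr13:21753913-21754075, plus strand: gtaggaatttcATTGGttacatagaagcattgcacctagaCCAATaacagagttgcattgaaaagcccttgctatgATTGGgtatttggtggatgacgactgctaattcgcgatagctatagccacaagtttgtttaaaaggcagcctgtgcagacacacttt
H2ac12 and H2bc12, chr13:22035644-22035820, plus strand: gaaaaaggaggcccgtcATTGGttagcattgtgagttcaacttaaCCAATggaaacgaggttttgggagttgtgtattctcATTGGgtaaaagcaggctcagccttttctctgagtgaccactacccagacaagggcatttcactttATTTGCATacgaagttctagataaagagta
H2ac8 and H2bc8, chr13:23571221-23571399, plus strand: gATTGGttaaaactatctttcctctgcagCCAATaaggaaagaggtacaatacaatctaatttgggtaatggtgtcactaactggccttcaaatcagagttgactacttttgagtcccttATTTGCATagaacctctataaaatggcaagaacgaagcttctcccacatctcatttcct

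Counted on both strands in the 250 bases before each start, the octamer stood in 1.60% of all 32851 promoters, in 5 of 12 H2A and 5 of 13 H2B cluster genes, and in 0 of 8 H3 and 0 of 11 H4 cluster genes. CCAAT stood in 33.8% of all promoters and in 12 of 12 H2A, 13 of 13 H2B, 6 of 8 H3 and 3 of 11 H4 cluster genes. The octamer also stood in 1 of 5 replication-independent variants and 2 of 5 germ line genes, and in 0 of 4 H1 cluster genes. CCAAT stood in 4 of 5 replication-independent variants, 4 of 5 germ line genes and 4 of 4 H1 cluster genes. Genes of a head-to-head pair share much of this window, so their counts are not separate. Of the 3 stretches printed, those of H2ac12 with H2bc12 and H2ac8 with H2bc8 hold the octamer, and the letters are not in the stretch of H2ac15 with H2bc15. A match is only a run of letters and says nothing of binding.

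The first comparison was the difference between fractions in vehicle pools, that is, without added odor. Most genes of the replication-coupled class were lower in titled GFP-, most of all those of H2A and H3. H2bc21, counted in that class, and the H3.3 gene H3f3b differed by less than their errors. Of the 63 members, 29 passed limma's test over all 19572 features at an adjusted p of 0.05 as lower and 0 as higher, and 41 had an unadjusted p under 0.05. Over all features 16.9% passed, 9.82% as lower and 7.05% as higher. The median difference of the members was -0.83, against 0.13 over all features. In odor pools 33 members were lower and 1 higher, with a median of -0.89 against 0.14, where 22.2% of all features passed, 9.98% as lower and 12.2% as higher. Both treatments shared 27 of these members, 2 passed in vehicle pools alone and 7 in odor pools alone. Within single pools, 46 of 63 members were lower in titled GFP- in all 8 pools, as were 11.5% of all features.

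Vehicle replicate 1 decided part of the vehicle count. Without that pool 16 members passed, all of them among the 29. Without odor replicate 1, 25 members passed in odor pools, all lower. Centring each array on the median of its tested features, which moves the median of all features to 0.54 in vehicle and 0.44 in odor pools, gave 25 lower and 6 higher members in vehicle and 28 lower and 7 higher in odor pools. With that scaling H2bc21, H2bc4, H2ac21 and the germ line gene H1f7 passed as higher in both treatments. The 29 vehicle and 34 odor members kept their sign under all 3 scalings run.

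**Figure D1:**
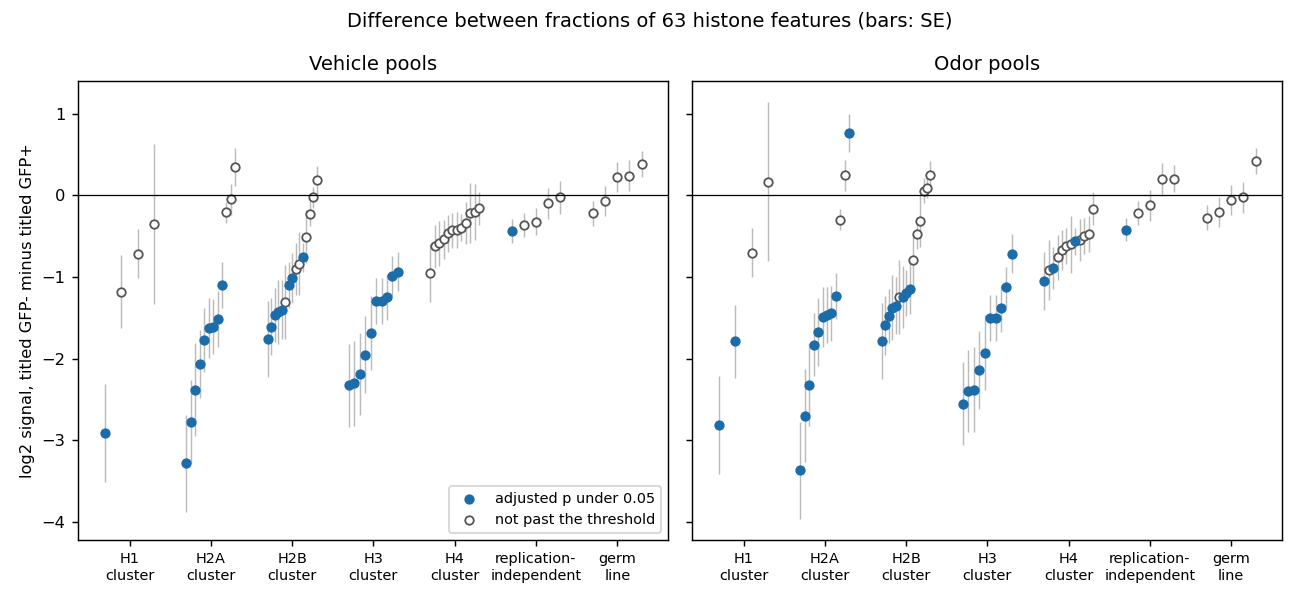
Log2 difference of each of the 63 histone features (titled GFP- minus titled GFP+, vertical axis) by class, in vehicle pools (left) and odor pools (right); bars are SE from limma and filled points passed an adjusted p of 0.05. All 10 H3 cluster genes are filled and below 0 in both panels, whereas the H4 genes lie between -1.05 and -0.16 and few are filled.

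Among the H2A genes of the clusters, 9 of 12 were lower in vehicle pools, with a class median of -1.62 and a range from -3.28 to 0.34. H2ac15 had the largest difference of all members. Its log2 signal was 9.31, 10.65, 9.77 and 10.63 in vehicle titled GFP- replicates 1 to 4, and 14.58, 12.71, 13.55 and 12.63 in vehicle titled GFP+. In odor titled GFP- it was 9.28, 10.12, 10.08 and 10.47, and in odor titled GFP+ 15.50, 12.52, 13.12 and 12.29. The fractions did not overlap in either treatment, and replicate 1 was the highest titled GFP+ and lowest titled GFP- array in both. The difference was -3.28 in vehicle (SE 0.59, adjusted p = 0.00078) and -3.37 in odor pools (SE 0.59, adjusted p = 0.00064).

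The next H2A genes were H2ac10 with -2.77 (SE 0.51, adjusted p = 0.00086) and H2ac8 with -2.38 (SE 0.57, adjusted p = 0.0076) in vehicle pools. H2ac4 differed by -2.07 (SE 0.42) and H2ac24 by -1.77 (SE 0.39). In odor pools the same genes differed by -2.32, -2.70, -1.67 and -1.83, all past the threshold. The 3 H2A genes that did not pass in vehicle pools were H2ac20 (-0.21), H2ac6 (-0.05) and H2ac21 (0.34). H2ac21 was the 1 member higher in titled GFP- in all 8 pools, as were 15.9% of all features, and the 1 member that passed as higher in odor pools. Its signal there was 8.49, 8.24, 8.58 and 8.73 in titled GFP- and 7.57, 7.53, 7.84 and 8.06 in titled GFP+, a difference of 0.76 (SE 0.23, adjusted p = 0.028). The adjusted p was 0.055 to 0.118 when any 1 odor pool was left out. H2ac21 was below the 95th percentile of 5222 negative control probe sets on all odor arrays, where that level was 9.75 to 10.9.

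The H3 genes of the clusters, which encode H3.1 and H3.2, were the class in which every member passed: 10 of 10 were lower in each treatment, with medians of -1.49 and -1.71. Among these, H3c14 and H3c15 carry the same values, and H3c1 was below background on all arrays. H3c6 measured 10.26, 10.88, 10.26 and 10.88 in vehicle titled GFP- and 13.96, 12.58, 13.04 and 12.01 in vehicle titled GFP+. In odor pools it measured 10.55, 9.81, 10.19 and 10.29 in titled GFP- and 14.69, 12.11, 12.57 and 11.66 in titled GFP+. The lowest titled GFP+ array lay more than 1 log2 unit above the highest titled GFP- array in each treatment. The differences were -2.33 (SE 0.51, adjusted p = 0.0039) and -2.55 (SE 0.51, adjusted p = 0.0019).

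H3c11 (-2.30 in vehicle, -2.38 in odor pools), H3c10 (-2.19 and -2.40), H3c8 (-1.95 and -2.14) and H3c7 (-1.69 and -1.93) followed. The smallest H3 differences were those of H3c3 (-0.98 and -1.12) and H3c1 (-0.94 and -0.71). H3c1 was below background in both fractions, so its difference carries no fold. The H3 cluster genes code for nearly the same protein and their probes may share targets, which was not tested. Without vehicle replicate 1, 6 of the 10 passed in vehicle pools, and without odor replicate 1, 9 of 10 passed in odor pools.

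H2B cluster genes were divided: 8 of 15 were lower in each treatment, with medians of -1.01 and -1.20. In vehicle pools the largest differences among them were those of H2bc3 (-1.76) and H2bc15. In odor pools H2bc3 (-1.78) was followed by H2bc7 (-1.59). H2bc3 read 6.94 to 7.47 on vehicle and 6.60 to 7.30 on odor titled GFP- arrays. The background level of those arrays was 6.87 to 7.41, so its differences were measured near the floor. H2bc15, the H2B partner of H2ac15, measured 11.61, 11.89, 11.84 and 11.97 in vehicle titled GFP- and 14.29, 13.05, 13.28 and 13.12 in vehicle titled GFP+. In odor pools it measured 12.04, 11.86, 11.93 and 12.12 in titled GFP- and 14.69, 12.78, 13.13 and 12.77 in titled GFP+. The fractions did not overlap, and the difference was -1.61 (SE 0.35, adjusted p = 0.0036) in vehicle and -1.35 (SE 0.35, adjusted p = 0.011) in odor pools. The H2B count depended on single pools. Without vehicle replicate 1, 2 of 15 passed in vehicle pools, H2bc12 and H2bc15, and without vehicle replicate 3, 4 of 15 passed. Without odor replicate 1, 5 of 15 passed in odor pools.

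Within the head-to-head pairs printed above, the H2A gene had the larger difference in each. For H2ac15 and H2bc15 the values were -3.28 and -1.61 in vehicle pools, and for H2ac12 and H2bc12 they were -1.63 and -1.46. For H2ac8 and H2bc8 they were -2.38 and -0.83, the second with an adjusted p of 0.149. In odor pools these 3 are the pairs of which both genes passed. The difference between the members of a pair was not tested, since the genes are read by different probes.

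The other H2B genes that passed as lower in vehicle pools were H2bc12 (-1.46), H2bc14 (-1.43), H2bc7 (-1.40), H2bc18 (-1.09), H2bc13 (-1.01) and H2bc22 (-0.76). In odor pools H2bc13 (-0.79, adjusted p = 0.079) and H2bc22 (-0.47, adjusted p = 0.072) did not pass, while H2bc8 (-1.25) and H2bc9 (-1.14) did. H2bc11 had similar sizes, -1.31 and -1.25, with wider errors (SE 0.45) and adjusted p of 0.060 in both treatments. H2bc23 (-0.51 and -0.31) and H2bu2 (-0.22 and 0.06) did not pass, and H2bu2 was below background on all 16 arrays. Several H2B genes differ by few bases, and whether their probes read each other's transcripts was not tested.

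By position, 40 cluster genes lie on chromosome 13 (the former Hist1 cluster) and 6 on chromosome 3 (the former Hist2 cluster) in the RefSeq promoter table. On chromosome 13, 22 of 40 were lower in vehicle pools (median -1.13) and 25 of 40 in odor pools (median -1.25). On chromosome 3, 4 of 6 were lower in each treatment (medians -1.17 and -1.29): H2bc18, H3c13, H3c14 and H3c15. Of these, H3c14 and H3c15 carry the same values. The 5 members without a promoter entry were not counted by position. They include H2bc21 and H4c14, formerly Hist2h2be and Hist2h4. H2bc21 passed in neither treatment and H4c14 in odor pools alone. Lower genes thus came from both clusters, and the difference between the clusters was not tested.

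Among the linker genes, H1f1 passed as lower in both treatments, H1f5 in odor pools, and H1f2 and H1f3 in neither. H1f1 measured 5.65, 6.03, 5.35 and 6.23 in vehicle titled GFP-, all below background, and 10.27, 7.68, 8.90 and 8.04 in vehicle titled GFP+. With the background as floor it was at least 2.92-fold lower in titled GFP- of vehicle pools (measured means 5.81 and 8.72, adjusted p = 0.0023). In odor pools it was at least 2.46-fold lower (measured means 5.73 and 8.54, adjusted p = 0.0030). H1f5 was below background on all 8 vehicle arrays (adjusted p = 0.087). In odor pools it was above background on 0 of 4 titled GFP- arrays and on 1 of 4 titled GFP+ arrays, which read 7.57, 5.39, 5.17 and 4.75, so its call (adjusted p = 0.0095) carries no fold. H1f2 differed by -0.35 (SE 0.98) and 0.17 (SE 0.98), the widest error of all members. That fit does not pair the fractions of a pool, so the SE includes the spread between pools. Within single pools the H1f2 difference ran from -0.75 to 0.10 in vehicle and from -0.005 to 0.33 in odor pools.

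H4 genes had the class medians nearest 0 among the cluster genes. All 12 lay below 0 in both treatments as deposited, but 0 of 12 passed limma's test in vehicle pools (median -0.42), and 3 passed in odor pools (median -0.61): H4c6 (-1.05), H4c14 (-0.89) and H4c11 (-0.56). With the pool as replicate block, 2 of 12 passed in vehicle and 8 of 12 in odor pools. In odor pools 6 of 12 passed with quantile normalization and 6 of 12 with the trended robust variance. H4c4 measured 13.82, 14.11, 14.15 and 13.97 in vehicle titled GFP- and 14.72, 14.34, 14.33 and 14.35 in vehicle titled GFP+. In odor pools its titled GFP- arrays read 14.11, 14.00, 14.03 and 13.97 and its titled GFP+ arrays 15.40, 14.28, 14.37 and 14.06. The vehicle arrays did not overlap, yet the difference of -0.42 (SE 0.22) had an adjusted p of 0.204. Under centring on the tested median, the H4 median was -0.02 in vehicle pools and 7 of 12 were below 0. Without odor replicate 1, 0 of 12 H4 genes passed in odor pools, and 4 of 12 in vehicle pools, where the values are the same and only the shared error estimate changed. H4 genes encode the same protein from similar sequences, and shared probe targets were not tested; the difference between H4 and H3 was not tested either.

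**Figure D2:**
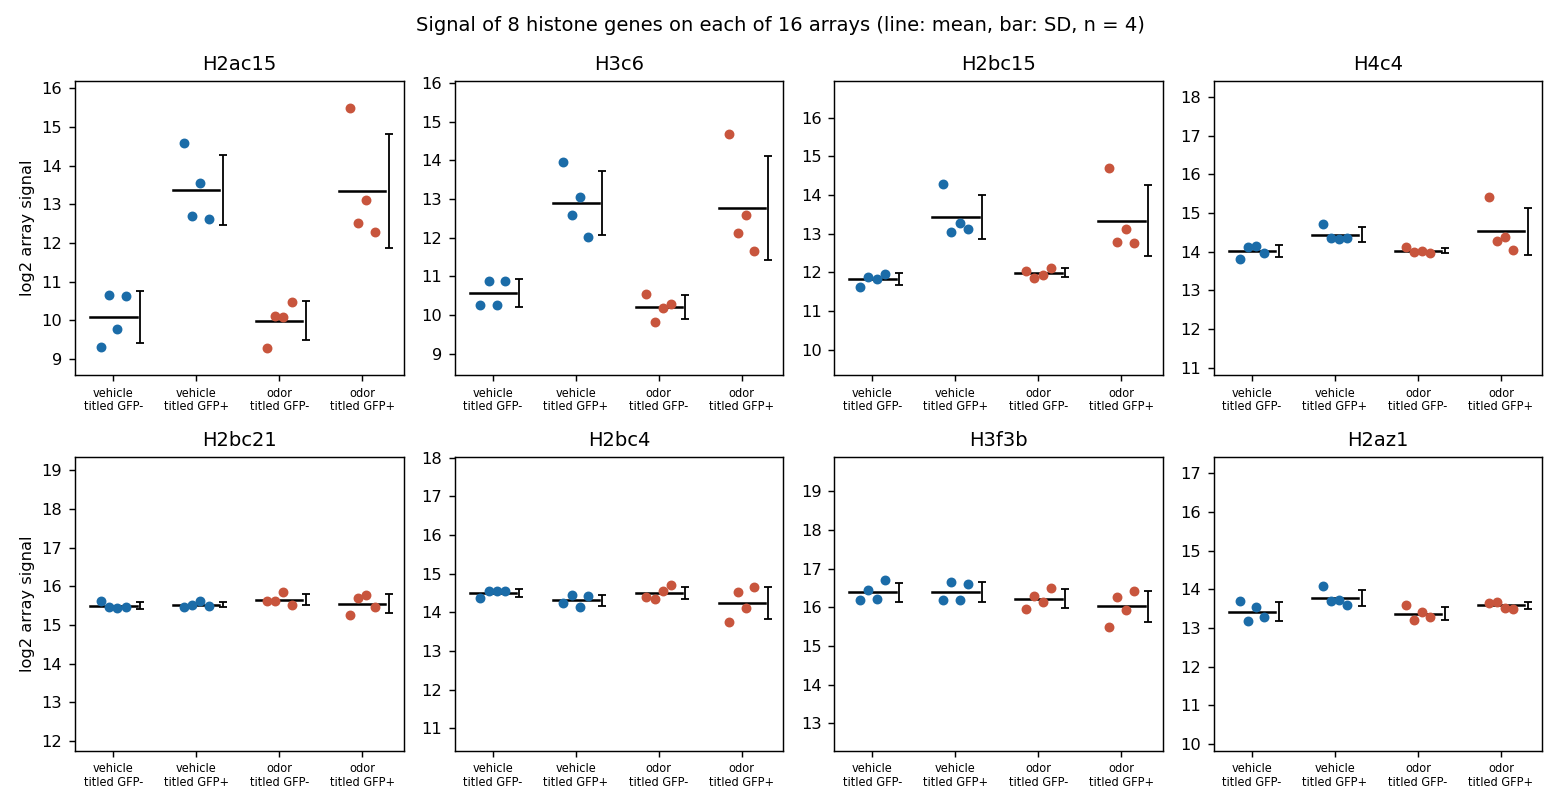
Log2 array signal (vertical axis, the same span in each panel) of 8 histone genes on the 16 arrays, by group; points are arrays, lines means and bars SD of 4 arrays. H2ac15, H3c6 and H2bc15 are lower on all titled GFP- arrays than on all titled GFP+ arrays of the same treatment, whereas H2bc21, H2bc4 and H3f3b overlap between fractions.

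H2bc21, the gene of the activity-linked variant H2BE, was above background on every array and nearly even between fractions. Its signal was 15.63, 15.46, 15.44 and 15.47 in vehicle titled GFP- and 15.48, 15.52, 15.62 and 15.48 in vehicle titled GFP+. In odor pools it was 15.63, 15.62, 15.85 and 15.51 in titled GFP- and 15.25, 15.71, 15.78 and 15.48 in titled GFP+. The groups overlapped throughout, and all 16 arrays lay between 15.25 and 15.85. The fraction difference was -0.03 in vehicle (95% interval -0.30 to 0.25, adjusted p = 0.912, exact permutation p = 0.514) and 0.10 in odor pools (interval -0.17 to 0.37, adjusted p = 0.623, exact permutation p = 0.543). This value depends on scaling: when every array was centred on its own tested-feature median it was 0.38 (adjusted p = 0.024) and 0.40 (adjusted p = 0.023), and with arrays centred on the olfactory receptor median -0.30 and -0.37, neither past the threshold.

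Odor and vehicle arrays of H2bc21 overlapped in both fractions. Odor minus vehicle was 0.15 in titled GFP- (95% interval -0.12 to 0.42, exact permutation p = 0.114) and 0.03 in titled GFP+ (interval -0.24 to 0.30, exact permutation p = 0.857). The difference between the fraction differences of odor and vehicle pools was 0.12 (interval -0.26 to 0.51). Changes of up to 0.42 in titled GFP- and 0.30 in titled GFP+ thus lie inside the intervals. With 4 arrays against 4 the smallest exact two-sided p is 0.0286.

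Some other cluster genes also had differences near 0. H2bc4 measured 14.36 to 14.55 in vehicle titled GFP- and 14.14 to 14.45 in vehicle titled GFP+, with a difference of 0.19 (SE 0.17, adjusted p = 0.481). H2ac20 measured 14.51 to 14.68 and 14.63 to 14.94, with -0.21 (SE 0.13, adjusted p = 0.292), and H2ac6 9.61 to 10.14 and 9.64 to 10.33, with -0.05 (SE 0.19). In human cells, the genes named H2BC4, H2BC21, H2AC6 and H1-2 are known for polyadenylated transcripts that persist after cells stop dividing. These genes were singled out after their values were seen, and no test of the group was made.

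The replication-independent variants differed little. H3f3b measured 16.17, 16.44, 16.21 and 16.70 in vehicle titled GFP- and 16.18, 16.65, 16.19 and 16.59 in vehicle titled GFP+, with a difference of -0.02 (SE 0.20, adjusted p = 0.955). H3f3a, which encodes the same H3.3 protein, was lower in titled GFP- by limma: 12.98, 12.90, 13.04 and 13.38 against 13.60, 13.33, 13.47 and 13.65 in vehicle pools, a difference of -0.44 (SE 0.14, adjusted p = 0.049). In odor pools the difference was -0.42 (SE 0.14, adjusted p = 0.049). In vehicle pools the highest titled GFP- array of H3f3a lay above its lowest titled GFP+ array, and the call ended with any 1 vehicle pool left out (adjusted p 0.052 to 0.220) and with centring on the tested or the receptor median (adjusted p 0.836 and 0.052). The odor call ended with any 1 odor pool left out (0.070 to 0.185) and with centring on the tested median (0.462).

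H2az1 and H2az2, the genes of H2A.Z, differed by -0.36 (SE 0.15, adjusted p = 0.109) and -0.32 (SE 0.16, adjusted p = 0.197) in vehicle pools and by -0.22 and 0.21 in odor pools. H1f10, the H1X linker gene, differed by -0.10 and -0.12 (SE 0.20 each) and was below background on all 4 odor titled GFP- arrays. Over all 16 arrays it read 6.3 to 7.3, around the background level of 6.9 to 7.4, so its differences were measured near the floor. Under centring on the tested median, H2az2 and H3f3b changed sign in vehicle pools, and H2az1 and H1f10 in both treatments. None of the 5 germ line members passed in either treatment (limma, unadjusted p under 0.05 for H1f7 alone), and H1f6, H1f7, H1f8 and H2bc1 were below background in all 4 groups. In all, 6 members were below background on all 16 arrays and 50 above it on all 16. Of the features outside the rule, H2ax, whose variant takes part in DNA repair and also has a stem loop transcript, was lower in titled GFP-, with a difference of -1.72 (SE 0.33, adjusted p = 0.0013) in vehicle pools, while H2aj, Macroh2a1 and Macroh2a2 lay between -0.14 and -0.01 and did not pass.

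The class medians moved with the pools. For the 53 cluster genes the median difference within a pool was -1.71 in vehicle replicate 1 and -1.0 to -0.75 in vehicle replicates 2 to 4. It was -2.32 in odor replicate 1 and -0.86 to -0.54 in odor replicates 2 to 4. Replicate 1 was the most negative pool of its treatment for the H2A, H2B, H3 and H4 medians alike. The titled GFP+ arrays differed among themselves more than the titled GFP- arrays: the median signal of the H3 cluster genes ran from 11.8 to 13.5 and from 11.5 to 14.5 on vehicle and odor titled GFP+ arrays, and from 10.2 to 10.3 and from 9.89 to 10.2 on the titled GFP- arrays.

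**Figure D3:**
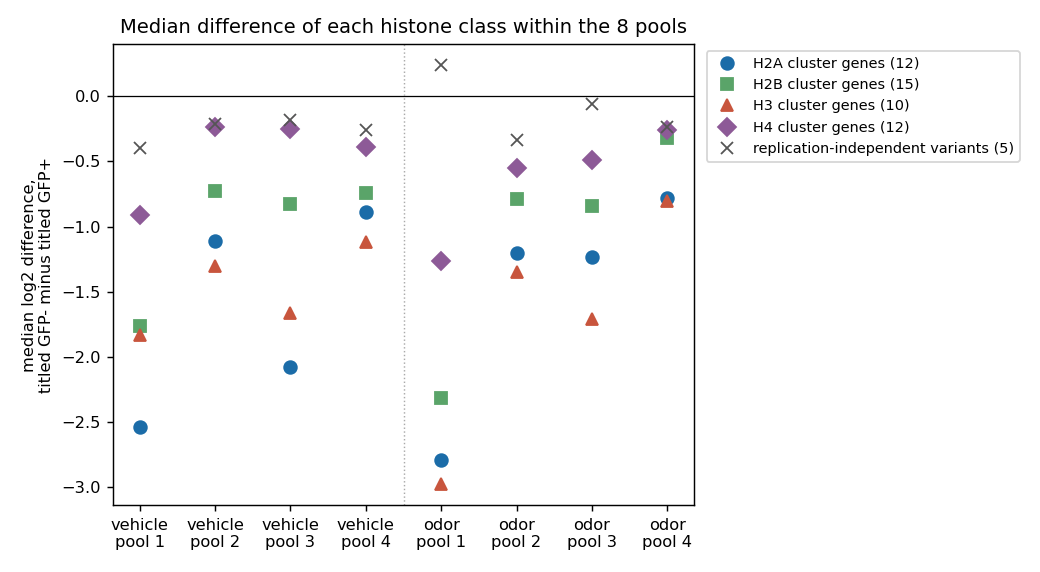
Median log2 difference (titled GFP- minus titled GFP+, vertical axis) of 5 histone classes within each of the 8 pools; each point is 1 class in 1 pool, with the number of genes in the legend. Replicate 1 holds the lowest medians of the 4 cluster classes in both treatments, and the replication-independent variants stay between -0.40 and 0.24.

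Genes of S phase and the cell cycle were examined beside the histones, from a list of 17 measured genes. Of these, 15 were lower in titled GFP- in vehicle pools (median -2.39) and 14 in odor pools (median -1.92). Only 3 or 4 of the 17 were above background on a titled GFP- array, against 9 to 15 on a titled GFP+ array. The median differences were thus measured against the floor and carry no fold. The median signal of the 17 genes on titled GFP+ arrays was 9.58 in vehicle replicate 1 and 9.23 in odor replicate 1, and 7.47 to 8.24 on the other 6 arrays. It was 5.31 to 5.96 on all titled GFP- arrays. The same 2 titled GFP+ arrays had the highest medians of the neutrophil markers (15.31 and 14.96), the other leukocyte markers (11.1 and 10.8) and the erythroid markers (10.7 and 10.2). The share of any of these cells in the histone differences was not tested. Cenpa, the centromeric H3 variant made in dividing cells, was at least 2.26-fold lower in titled GFP- of vehicle pools, where its titled GFP- arrays were below background.

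Of 15 genes for histone transcription and pre-mRNA processing, 4 were lower in vehicle and 3 in odor pools, with medians of -0.04 and -0.005. E2f2, a transcription factor of S phase entry, was below background in titled GFP- and at least 8.30-fold lower there in vehicle (limma, adjusted p = 9.3e-07) and at least 6.90-fold lower in odor pools (adjusted p = 5.5e-07). Cdk2, an S phase kinase, was likewise below background in titled GFP- and at least 1.95-fold lower in vehicle pools (adjusted p = 2.1e-06), and it was lower in odor pools too (adjusted p = 4.7e-06). The others lower were the cyclin genes Ccne1 in both treatments and Ccne2 in vehicle pools, both below background in titled GFP-. Slbp, whose protein binds the stem loop of histone messenger RNA, differed by -0.08 (SE 0.15, adjusted p = 0.747) in vehicle pools. Of 19 chaperone and exchange genes, 2 were lower in vehicle pools, and 3 were lower and 1 higher in odor pools. Asf1b, a chaperone of H3 and H4, differed by -2.45 (SE 0.45, adjusted p = 0.00091) in vehicle and -2.07 (SE 0.45, adjusted p = 0.0035) in odor pools. Markers of immature OSNs were lower for 4 of 7 genes and those of basal and progenitor cells for 4 of 8 genes in each treatment. Titled GFP+ arrays had 1 or 2 of the 8 basal and progenitor markers above background and titled GFP- arrays 0.

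The second question was whether odor changed histone genes within a fraction. By limma, 0 of 63 members and 0 of 19572 features (0%) passed for odor against vehicle in titled GFP-, in titled GFP+ or for the difference between the fraction differences. That fit has no term for the replicate number, which same-numbered odor and vehicle arrays share. With the number as replicate block, 0 of 63 members and 1 feature passed in each fraction. In the fit without it, at an unadjusted p under 0.05, there were 2, 2 and 1 members and 805, 2016 and 739 features. The member differences spanned -0.44 to 0.47 in titled GFP- and -0.63 to 0.56 in titled GFP+, with medians of -0.01 in each. The fraction comparisons of vehicle and odor pools and these odor comparisons use the same arrays, so they are not independent.

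The member with the smallest p was H2az2 in titled GFP+, where odor arrays read 8.09, 8.23, 8.55 and 8.51 and vehicle arrays 9.03, 8.81, 9.06 and 8.98. The 2 groups did not overlap. Each of these values lay below the 95th percentile of the negative controls on its array, which was 9.14 to 10.9 in titled GFP+. The difference was -0.63 (SE 0.16, unadjusted p = 0.0014 by limma) with an adjusted p of 0.315, and of 0.185 with the replicate number as block. It was lower with odor in all 4 numbers. H2az2 also had the smallest p for the difference between fraction differences (0.53, SE 0.23, adjusted p = 1.00). In titled GFP+ the next were H1f8 (0.56), H1f7 (0.31), H3f3b (-0.38) and H2bu2 (-0.28). In titled GFP- they were H2bc22 (0.47), H1f7 (0.35), H3c1 (0.44), H2bc1 (-0.32) and H3f3a (-0.24), each with an adjusted p of 0.999.

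**Figure D4:**
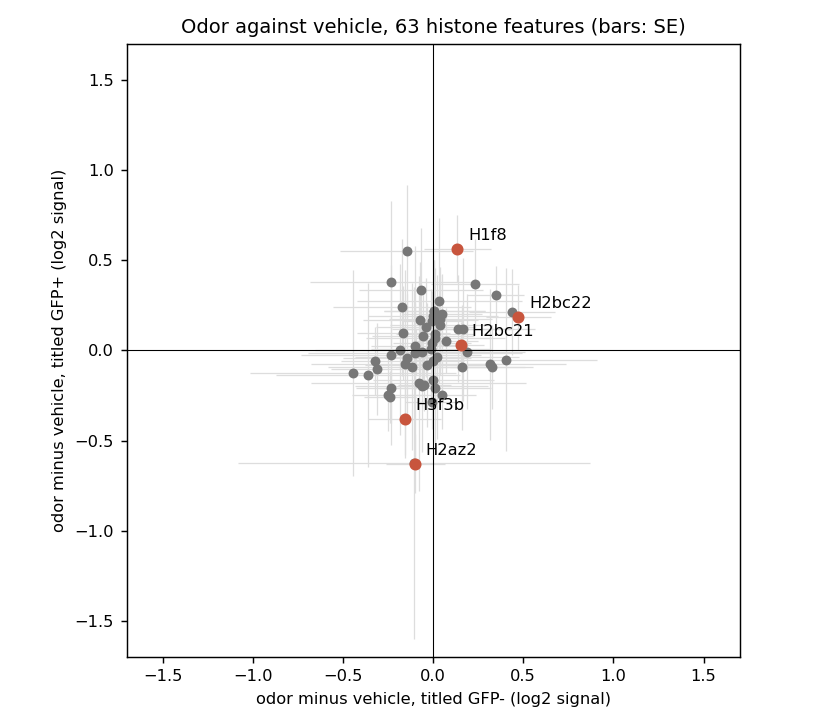
Odor minus vehicle difference of the 63 histone features in titled GFP- (horizontal axis) and titled GFP+ (vertical axis), in log2 signal, with SE bars; labelled points are H2bc21 and members with small p values. The points lie between -0.63 and 0.56 on both axes and none passed an adjusted p of 0.05.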

How the data were processed

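The deposited values are log2 array signals, made by the authors with Affymetrix Expression Console per the submitters' processing notes. The unit was read from the range of the values. Background correction, normalization and tool version are not given in the sources used here, and arrays were compared on their deposited scale. Probe names came from the platform annotation, matched to RefSeq by Entrez identifier.

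The means of the 4 groups were estimated for all 19572 features with 1 gene symbol (limma 3.58.1, R 4.3.3), with two-sided moderated tests and Benjamini-Hochberg adjustment at 0.05. The fit was tested on simulated data. SE and 95% intervals come from this fit, SD from 4 arrays. A feature was above background on an array if it exceeded the 95th percentile of 23 background probe sets. Each group had 4 arrays, and what limits the precision was not tested. Replicates are pools of different mice.

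The 24 mice in pools of 3 make 8 pools for 16 arrays, so each replicate number within a treatment is 1 pool with both fractions. Deviations from group means correlated at 0.0957 to 0.337 within pools and at 0.147 to 0.547 between same-numbered odor and vehicle arrays of a fraction. Fits with the pool as a block ended no named call: all 29 vehicle and 34 odor members stayed past the threshold among 33 and 40.

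Members and lists were chosen with earlier results of these data known. The rule named H2bc21 and the replication-independent variants always, up to 10 members at each end past the threshold, and, where fewer than 5 passed, the 5 with the smallest p. Alternatives were 3 scalings, a filter at the 95th percentile of 5222 negative controls, trended robust variance, blocks and leaving out each pool.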

Additional observations from a re-analysis of the deposited data

Results flagged for a closer look

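In 25 named members over 4 groups, 4 of 100 groups of 4 arrays had 1 array far from the other 3 by Dixon's criterion, and chance gives about 1 in 20. H1f1 read 10.77 and H3c7 12.18 in odor titled GFP+ replicate 1, each far above its other 3 arrays, at 7.60 to 8.08 and 9.41 to 9.81. That array also had the highest negative control percentile (10.9). H2bc21 read 15.63 in vehicle titled GFP- replicate 1, against 15.44 to 15.47 on the other 3. H2bc22 read 9.11 in vehicle titled GFP- replicate 2, against 8.74 to 8.79. Without odor replicate 1, H1f1 and H3c7 still passed in odor pools.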

How the results depend on the processing

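The vehicle count of 29 ran from 16 (without vehicle replicate 1) to 37 (without odor replicate 1) over the leave-outs, with 16 members past the threshold in all of them. The odor count of 34 ran from 25 to 36, with 23 members in all. Other settings gave 23 to 33 and 28 to 40. The odor and interaction counts were 0 in every setting run. For H2bc21, leave-outs gave -0.084 to 0.025 in vehicle pools, 0.0057 to 0.16 in odor pools, and -0.045 to 0.13 for odor against vehicle in titled GFP+. Centring on the tested median gave 0.38 and 0.40, both past the threshold, and centring on the receptor median -0.37 in odor pools and -0.066 for the interaction. S100a5 fell to 0.72 (adjusted p = 0.107) in vehicle pools with receptor centring.

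Reversals of other named genes, none past the threshold, were these. With tested-median centring, vehicle values became 0.046 for H2az1, 0.082 for H2az2, 0.38 for H3f3b and 0.31 for H1f10, and odor values 0.084 for H2az1 and 0.18 for H1f10. With receptor centring, odor values became -0.26 for H2az2 and -0.26 for H3f3b. With quantile normalization H1f10 became 0.30 and 0.21. Leave-outs gave -0.062 to 0.043 for H3f3b and -0.20 to 0.021 for H1f10 in vehicle pools and -0.24 to 0.0049 for H1f10 in odor pools. The cause of these shifts was not tested. With the pool as replicate block 33 and 40 members passed and H2bc21 stayed at -0.03 and 0.10. The negative control filter left 40 members and no value for the H1 or germ line genes. It left 7 of 10 H3 cluster genes, all 7 lower in each treatment. Of 15 H2B cluster genes it left 9, with 6 lower in vehicle and 5 in odor pools. Turning the fraction labels changes signs only and was not refitted.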

Other observations

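H1f2, a linker histone gene, followed the replicate number and not the fraction or treatment. It was singled out after its values were seen. In replicates 1 and 3 it read 7.52 to 8.12 in all 4 groups, and in replicates 2 and 4 it read 9.34 to 11.18. The fractions of a pool lay closer to each other than these 2 ranges, for example at 11.18 and 11.08 in vehicle replicate 4 and 10.77 and 10.78 in odor replicate 4. No other member had an SE as large as its 0.98. No label sets these replicates apart, and no test was made.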
